A study of Mus musculus with 17 samples.

Results

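RNA editing rewrites single bases of a transcript after it is copied from DNA. Here 10 genes of this process, of 38355 gene identifiers counted, were followed in the hippocampus of ageing mice. They were listed by name, with earlier results of these data known, as 5 genes of the editing enzyme families and 5 transcripts known to be edited in brain. Adar and Adarb1 encode the catalytic enzymes that turn adenosine into inosine in double-stranded RNA, and inosine is read as guanosine. Adarb2 encodes a brain-enriched relative with no known deaminase activity, which binds RNA and can compete with the other ADAR proteins. Apobec1 encodes the cytidine deaminase that edits apolipoprotein B mRNA, and Apobec3 a cytidine deaminase that restricts retroviruses mainly through their DNA. The edited transcripts were Htr2c (the serotonin 2C receptor), Cyfip2 (a partner of FMRP and a subunit of the WAVE actin regulator), Blcap (a small apoptosis-inducing protein), Flna (filamin A, an actin crosslinker) and Slc7a2 (a cationic amino acid transporter with a nuclear, edited RNA form).

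In neurons, editing by these enzymes recodes ion channels, receptors and cytoskeletal proteins. Elsewhere it marks the cell's own double-stranded RNA, so that sensors of viral RNA do not respond to it. How much an RNA is edited depends on enzyme abundance and also on localisation, binding partners and splicing. Counts per gene give the abundance of a transcript and hold no information on how many of its copies were edited. They also do not separate the interferon-inducible long form of ADAR1 from its constitutive short form.

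RNA came from dissected hippocampus of untreated wild-type C57BL/6J mice. There were 5 single-end libraries at 3 months (3M), 6 at 24 months (24M), and 3 paired-end libraries each at 3 months and 29 months (29M). Library type and age therefore differ together across the aged groups, and each was compared only with the young libraries sequenced in the same way. The 3M single-end libraries held 19144461 to 28438296 counts on genes and the 24M libraries 9213474 to 19756411. The paired-end libraries held 10977976 to 15054972 counts at 3M and 10991389 to 13563541 at 29M. The 24M replicates 1 and 4 differed by less than the sampling noise (0.406 times the variance that counting alone gives, where the lowest of the other pairs among 136 gave 1.23). Their rounded mean was counted as 1 sample, which left n = 5 at 24M. Markers of hippocampal neurons, such as Prox1 and Wfs1, summed to 705 to 908 counts per 1000000 (CPM) across the libraries, and none of these 6 markers was at 0. Among the 3M single-end libraries replicate 4 held 572 CPM of 8 striatal markers where the other 4 libraries of its group held at most 199. The 24M results of Adarb2 and of the sensors of double-stranded RNA are also given without it. Calls of marker genes at 24M and correlations with marker sums include it.

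Edited sites of these transcripts are shown first, since editing is what joins these otherwise unrelated genes. Of the sites shown, those of Htr2c, Cyfip2 and Blcap change a codon, and those of Slc7a2 and Adarb1 lie outside coding sequence. Further listed sites are not shown. Among them, Adarb1 positions 77322607, 77322608 and 77322621 lie in coding exons and Htr2c position 147195693 in a UTR. Positions are on GRCm38 and come from the study's lists of edited sites, and the sequence is that of GENCODE M21 transcripts, written 5′ to 3′ on the strand of the gene. The adenosine that is deaminated stands in capitals. In Htr2c, on the plus strand of chromosome X, the sites at 147169686, 147169688 and 147169698 lie close together in the coding exon for the second intracellular loop and are known as sites A, B and D.
Htr2c site A: accggtatgtagcaAtacgtaatcctatt
Htr2c site B: cggtatgtagcaatAcgtaatcctattga
Htr2c site D: caatacgtaatcctAttgagcatagccgg
In Cyfip2 (chromosome 11, position 46272643, minus strand, coding) the edited base starts a lysine codon that is read as glutamate. In Blcap (chromosome 2, positions 157558149 and 157558140, minus strand, coding) the edited bases lie in a tyrosine and a glutamine codon near the start of the protein.
Cyfip2: tggccagatacattAagaccagtgctcac
Blcap tyrosine codon: ggcagagatcatgtAttgcctccagtggc
Blcap glutamine codon: catgtattgcctccAgtggctgctgcccg
The Flna position shown (chromosome X, 74226862, minus strand) lies in an annotated coding exon, and it could not be tied to the known glutamine-to-arginine site of filamin A. The Slc7a2 position (chromosome 8, 40917799, plus strand) lies in a UTR.
Flna: tgtttctagtcttcAggtgaggcactgag
Slc7a2: ctggaactcactctAtagaccagactaac
Adarb1 is itself edited, in a form of its pre-mRNA that the annotation carries as a noncoding exon (chromosome 10, position 77324084, minus strand).
Adarb1: gaaaggagtaacctAccggtcttttgctg

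All 10 genes were detected in all 17 libraries. Per kilobase of annotated exon, used to compare genes, they spanned a wide range and kept the same order of mean level in all 4 groups. The length is that of all annotated exons of a gene together, and the order depends on it. In normalised CPM, without this length, Apobec3 (3.74) stood above Apobec1 (2.86) in the 3M single-end group. Cyfip2 was highest (182 ± 8.23 CPM per kb in the 3M single-end group, SD, n = 5), above 99.1% of the 15718 genes ranked. Blcap followed at 34.4 ± 2.33 CPM per kb, then Adar at 28.9 ± 2.16 and Adarb1 at 19.4 ± 0.544. Htr2c stood at 11.4 ± 3.2, Flna at 7.46 ± 0.835, Slc7a2 at 4.49 ± 0.328 and Adarb2 at 2.51 ± 0.382 CPM per kb. The cytidine deaminases closed the order, with Apobec1 at 1.06 ± 0.263 and Apobec3 at 0.396 ± 0.0695 CPM per kb, the latter above 8.48% of genes. Of the neighbours in this order, the sample ranges overlapped for Blcap and Adar in the 3M single-end group and for Htr2c and Flna in both paired-end groups, and no other pair overlapped. Low levels rest on few counts: Apobec1 had 22 to 75 counts per library and Apobec3 27 to 88, while Cyfip2 had 11288 to 38870.

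**Figure D1:**
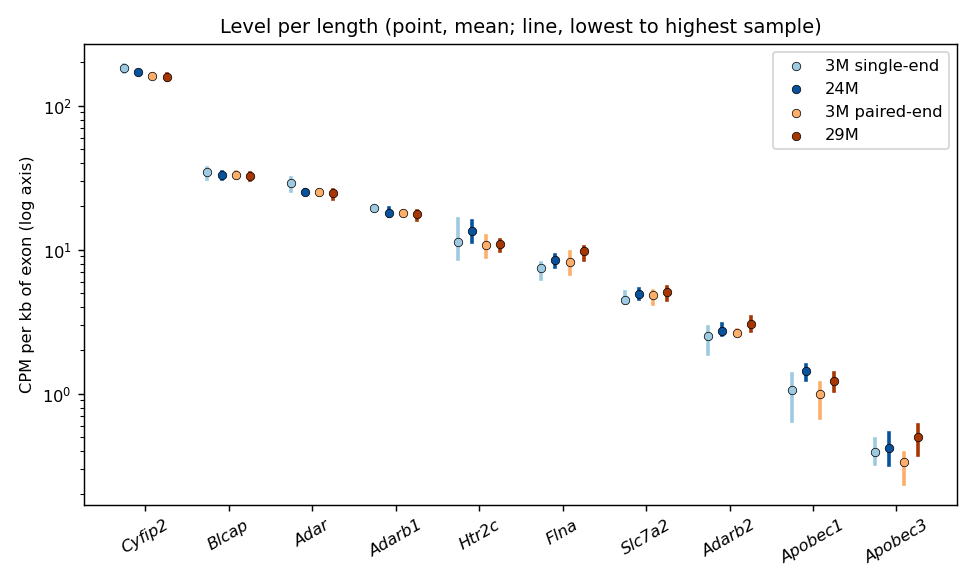
Level of each of the 10 genes in CPM per kilobase of exon on a log axis; points are group means and lines run from the lowest to the highest sample, with the 24M replicates 1 and 4 as 1 sample. The order from Cyfip2 down to Apobec3 is the same in the 4 groups.

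The main question was whether these transcripts changed in abundance with age. Calls required a log2 fold change of 0.5 or more in either direction together with an adjusted p no higher than 0.05, from edgeR's quasi-likelihood test and Benjamini-Hochberg adjustment over all genes tested. None of the 10 genes was called at 24M, where 1.98% of 15683 genes tested were called (1.34% higher and 0.638% lower), and none at 29M, where 1.45% of 15097 were (1.34% higher and 0.113% lower). With the adjusted p alone and no fold threshold, 1 of the 10 (Adar) passed at 24M, against 5.58% of all genes, and 0 at 29M, against 2.99%. At an unadjusted p of at most 0.05, 5 of the 10 passed at 24M, where 26.1% of all genes did, and 3 of the 10 at 29M, where 17.3% did. The young and aged samples did not overlap for 0 of the 10 at 24M, against 6.57% of all genes, and for 2 of the 10 at 29M (Adarb2 and Apobec3), against 22.4%. An absolute log2 fold change past 0.5 was reached by 0 of the 10 at 24M, against 5.87% of all genes, and by 1 at 29M, against 5.6%. DESeq2 with the same thresholds also called none of the 10 at either age. The median log2 fold change of the 10 was 0.12 at 24M and 0.05 at 29M, with 6 of 10 above 0 at each age, while over all genes 49.2% and 49.4% were above 0.

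The absence of calls does not show that levels were equal, and the intervals give the range left. The 95% intervals of the fold change lay wholly within the fold threshold for Adar, Adarb1, Adarb2, Cyfip2, Blcap, Flna and Slc7a2 at both ages, for Apobec3 at 24M and for Htr2c at 29M. They reached past it for Htr2c at 24M, for Apobec1 at both ages and for Apobec3 at 29M.

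**Figure D2:**
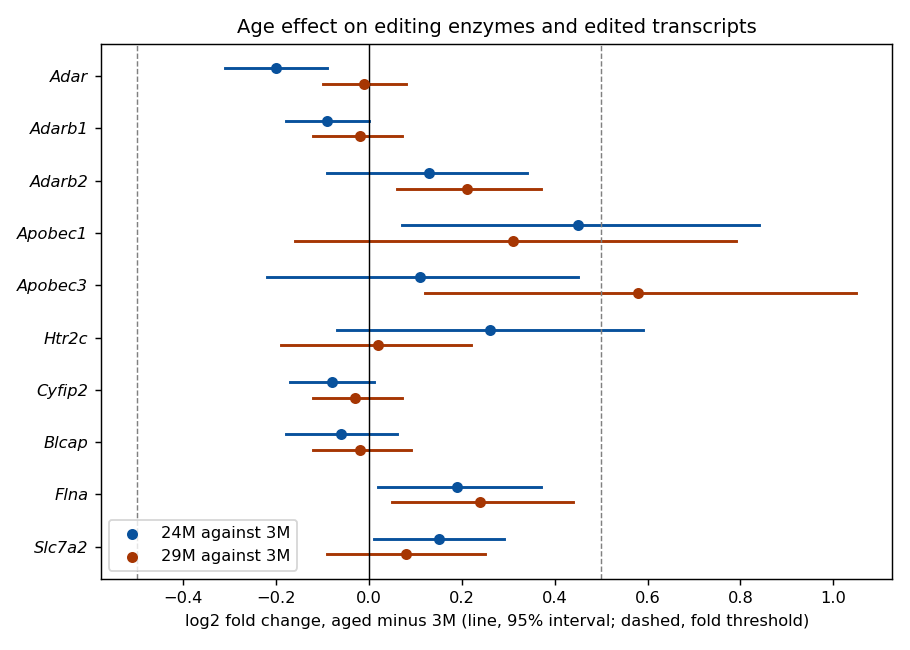
Log2 fold change of each gene, aged minus 3M, with its 95% interval from edgeR's quasi-likelihood fit (24M, n = 5 against 5; 29M, n = 3 against 3); the dashed lines mark the fold threshold of 0.5. Points run from -0.20 (Adar at 24M) to 0.58 (Apobec3 at 29M), and the Apobec1 and Apobec3 intervals are the widest.

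Adar, on the plus strand of chromosome 3 (89715022 to 89753446), was the only gene of the 10 past the adjusted p. In normalised CPM its values were 243, 236, 255, 232 and 207 in 3M single-end replicates 1 to 5. At 24M they were 212 in the pair and 207, 200, 202 and 201 in replicates 2, 3, 5 and 6. The young samples except replicate 5 lay above all aged ones, and replicate 5 lay among them. The fold change on the log2 scale was -0.20 (SE 0.053, 95% interval -0.31 to -0.09, adjusted p = 0.0445), from 235 ± 17.6 to 204 ± 5 CPM (SD), a decrease below the fold threshold. At 29M the values were 206, 192 and 208 against 209, 207 and 193 at 3M, a log2 difference of -0.01 (95% interval -0.10 to 0.08, adjusted p = 0.938). In a test of the difference between the age effects, fitted over all 4 groups, the 29M effect was 0.19 above the 24M effect (SE 0.078), with an unadjusted p of 0.0278 and an adjusted p of 0.422, and no gene of 16055 passed the adjusted p in that test. The adjusted p of Adar at 24M ranged from 0.00555 to 0.103 when single libraries were left out, and it was above 0.05 in 9 of these 11 fits. Adar shares 1365 of its exonic bases (16.8%) with Chrnb2, a nicotinic receptor subunit gene on the opposite strand. The library kit does not mark strand, and Chrnb2 itself changed by -0.11 on the log2 scale at both ages (adjusted p = 0.218 and 0.342), and the part of shared reads in the Adar values was not tested.

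Adarb1, on the minus strand of chromosome 10 (77290726 to 77418270), encodes the enzyme that recodes glutamate receptor transcripts. It measured 223, 221, 209, 219 and 218 normalised CPM at 3M and 201 (pair), 195, 202, 207 and 218 at 24M, so the groups overlapped. Its log2 fold change was -0.09 at 24M (95% interval -0.18 to 0, adjusted p = 0.181) and -0.02 at 29M (-0.12 to 0.07, adjusted p = 0.822), where the samples held 188 to 208 CPM. Per kilobase, Adar exceeded Adarb1 in every sample, by 1.32 to 1.69 times in the 3M single-end group and 1.28 to 1.47 times at 24M. In the paired-end libraries the ratio was 1.37 to 1.40 at 3M and 1.39 to 1.42 at 29M. In normalised CPM the paired-end means of Adar and Adarb1 were 203 and 204 at 3M and 202 and 200 at 29M, so the ratio there rests on annotated length.

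Adarb2 (chromosome 13, 8202866 to 8768747, plus strand) had values of 33.6, 33.1, 35.3, 24.6 and 38.2 normalised CPM at 3M and 33.9 (pair), 33.9, 40.4, 35.2 and 36.2 at 24M. The lowest of these belonged to 3M replicate 4, the library with striatal markers. The log2 fold change was 0.13 (95% interval -0.09 to 0.34, adjusted p = 0.445), and without that library 0.04. In the paired-end libraries Adarb2 held 34.8, 33.2 and 35.9 CPM at 3M and 44.2, 37.3 and 38.7 at 29M. All 3 aged samples lay above the young ones, which 11.9% of all genes also showed, and the log2 fold change of 0.21 (95% interval 0.06 to 0.37) had an adjusted p of 0.148. Adarb2 is known from interneurons of the caudal ganglionic eminence. The 7 markers of those cells, of which Cck and Reln were the most abundant, summed to 465 to 477 CPM at 3M and 414 to 442 CPM at 29M, and to 495 to 574 and 445 to 507 CPM in the single-end groups. The markers did not all share a direction. Of the 7, 3 were above 0 at 24M (median log2 fold change -0.22) and 2 at 29M (median -0.12). At 24M Lamp5 was called lower (-0.65 on the log2 scale, adjusted p = 0.0487) and Npy2r higher (0.51, adjusted p = 0.0183), and 0 of the 7 were called at 29M. Their part in the Adarb2 values was not tested. In bulk tissue fewer cells of a type and less RNA per cell cannot be told apart.

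**Figure D3:**
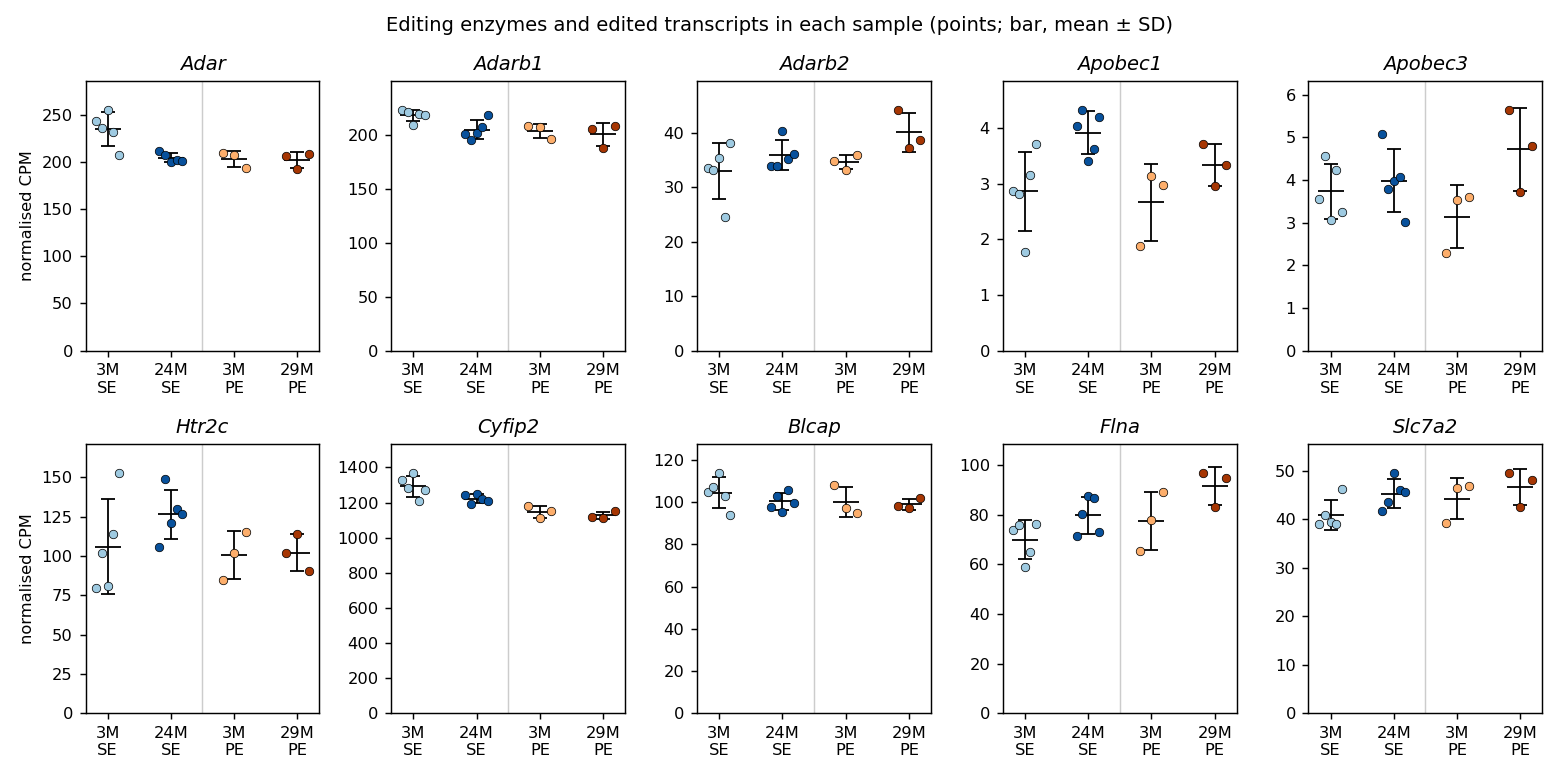
Normalised CPM of each gene in every sample (points) with the mean and SD of each group; SE is single-end and PE paired-end, the 24M replicates 1 and 4 are 1 point, and each axis starts at 0. The groups overlap in every panel at 24M, and at 29M all aged points lie above the young ones for Adarb2 and Apobec3 only.

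The cytidine deaminases were the least abundant of the 10. Apobec1 had the largest estimated change of the 10 at 24M, and Apobec3 at 29M. Apobec1 (chromosome 6, 122577792 to 122602444, minus strand) held 2.86, 2.81, 1.77, 3.16 and 3.71 normalised CPM at 3M and 4.03 (pair), 4.32, 3.40, 3.62 and 4.19 at 24M. The aged samples all lay above young replicates 1 to 4, and replicate 5 lay among them. The log2 fold change was 0.45 (95% interval 0.07 to 0.84, adjusted p = 0.126), and without 3M replicate 5 it was 0.56 with an adjusted p of 0.0455, the single case in which leaving out a library made a gene of the 10 pass the call. At 29M the values were 3.70, 2.95 and 3.34 CPM against 1.87, 3.14 and 2.97 at 3M (log2 fold change 0.31, 95% interval -0.16 to 0.79, adjusted p = 0.51). Apobec1 is expressed in microglia, and the 8 microglial markers summed to 372 to 429 CPM at 3M and 473 to 502 CPM at 24M, and to 352 to 378 and 455 to 498 CPM at 3M and 29M in the paired-end libraries. Of these 8 markers 2 were called higher at each age, against 1.34% of all genes. All 8 had log2 fold changes above 0 at both ages, with medians of 0.36 at 24M and 0.35 at 29M. With the adjusted p alone 5 passed at 24M and 6 at 29M, against 5.58% and 2.99% of all genes. The part of microglia in the Apobec1 values was not tested.

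Apobec3 (chromosome 15, 79891659 to 79915906, plus strand) did not separate the single-end groups, with 3.55, 4.57, 3.07, 4.23 and 3.26 normalised CPM at 3M and 5.07 (pair), 3.79, 3.97, 4.07 and 3.01 at 24M (log2 fold change 0.11, 95% interval -0.22 to 0.45, adjusted p = 0.677). In the paired-end libraries it measured 2.29, 3.53 and 3.60 CPM at 3M and 5.64, 3.71 and 4.80 at 29M. The aged samples lay above the young ones by a narrow margin, and the log2 fold change of 0.58 (95% interval 0.12 to 1.05, adjusted p = 0.18) was the only value among the 10 past the fold threshold, as given above. The difference between the age effects was 0.47 (SE 0.275, adjusted p = 0.558). Markers of T and B cells, which also express Apobec3, summed to at most 2 CPM over 7 genes at 29M and at most 1.18 CPM in the 3M paired-end group, each of the 7 below 1 CPM. Apobec3 shares 7.15% of its exonic bases with D730005E14Rik on the same strand, which was not analysed here, and 1.06% with Cbx7 on the opposite strand, whose own 29M value was 0.23 on the log2 scale (adjusted p = 0.0245, below the fold threshold).

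Htr2c (chromosome X, 146962513 to 147197277, plus strand), whose editing tunes coupling of the receptor to its G protein, had the widest spread relative to its mean of the 5 edited transcripts in the 3M single-end group. Its values were 79.9, 102, 80.8, 114 and 153 normalised CPM at 3M and 106 (pair), 149, 121, 130 and 127 at 24M. The young samples spanned the whole range of the aged ones, from 106 ± 29.9 to 126 ± 15.4 CPM (SD), with a log2 fold change of 0.26 (95% interval -0.07 to 0.59, adjusted p = 0.305). At 29M the values were 102, 114 and 90.3 CPM against 84.5, 102 and 115 (log2 fold change 0.02, 95% interval -0.19 to 0.22, adjusted p = 0.95). Without 3M single-end replicate 5, the highest sample, the 24M log2 fold change was 0.42 with an adjusted p of 0.0238, still below the fold threshold.

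Epithelium of the choroid plexus, which borders the hippocampus, is known for very high Htr2c expression, and its markers moved with Htr2c from sample to sample. The 8 markers, among them Ttr, Folr1 and Kl, summed to 5130, 4960, 2050, 7960 and 8510 CPM in 3M single-end replicates 1 to 5, and to 4710 to 7830 CPM at 24M. In the 6 paired-end libraries they summed to 3430 to 6510 CPM at 3M and 4230 to 6070 CPM at 29M. Across the 10 single-end samples Htr2c and this sum had a Pearson r of 0.82 (permutation p = 0.00322, adjusted p = 0.00713) and a Spearman rho of 0.78 (permutation p = 0.0114, adjusted p = 0.0114). Across the 6 paired-end samples r was 0.99 (exact permutation p = 0.00556, adjusted p = 0.00713) and rho 0.99 (exact permutation p = 0.00556, adjusted p = 0.00713), all two-sided and adjusted over 4 relations with 2 coefficients each. Without the 2 samples farthest from the median of the marker sum, r was 0.68 over 8 single-end and 0.98 over 4 paired-end samples. Ttr, the thyroid hormone carrier of this epithelium, made up 89.5% to 91.8% of the sum. With the other 7 markers alone r was 0.82 in the single-end samples (permutation p = 0.0038, adjusted p = 0.00713) and 0.93 in the paired-end samples (exact permutation p = 0.00556, adjusted p = 0.00713), with rho of 0.82 (permutation p = 0.00624, adjusted p = 0.00713) and 0.99 (exact permutation p = 0.00556, adjusted p = 0.00713). The permutations exchanged young and aged samples of a library type alike, and the relation was computed after the values had been seen. Within single groups, where 3 to 5 samples allow a description only, r lay between 0.83 and 1.0. None of the 8 markers was called at either age, and both quantities are shares of the same libraries. How much of the Htr2c RNA came from adjoining choroid plexus was not tested.

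**Figure D4:**
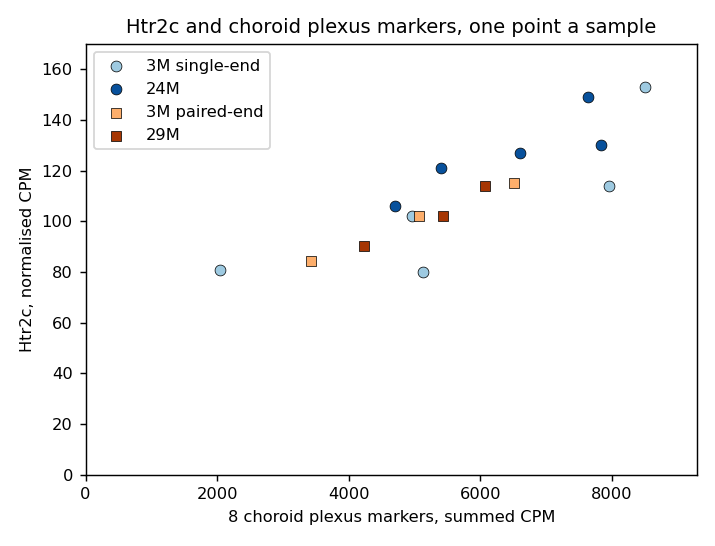
Htr2c in normalised CPM against the summed CPM of 8 choroid plexus markers, with 1 point for each sample (circles single-end, squares paired-end, the 24M replicates 1 and 4 as 1 point) and both axes from 0. Samples with more marker RNA tended to hold more Htr2c, with r = 0.82 in the single-end and r = 0.99 in the paired-end libraries.

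Per kilobase, Htr2c had the highest mean of the serotonin receptors measured in every group, with 13.5 ± 1.64 CPM per kb at 24M (SD, n = 5) against 8.48 ± 0.341 for Htr1a, the inhibitory receptor of pyramidal cells that came next. In the other 3 groups the means were 11.4 against 8.78 in the single-end and 10.8 against 8.91 in the paired-end 3M libraries, and 10.9 against 7.18 at 29M. The samples of the 2 genes overlapped in both 3M groups, with Htr2c from 8.59 and Htr1a up to 10.2 in the single-end libraries. In the paired-end 3M libraries Htr2c began at 8.84 and Htr1a reached 9.49. They did not overlap at 24M or 29M. The part of choroid plexus RNA in this order was not tested. Of 12 other serotonin receptor genes 10 were tested and 0 were called at either age, in either direction. On the log2 scale Htr1a measured -0.30 at 29M (adjusted p = 0.0472) and Htr1b also -0.30 (adjusted p = 0.581).

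The remaining edited transcripts moved by small amounts. Cyfip2 (chromosome 11, 46193850 to 46312859, minus strand) held 1330, 1280, 1370, 1210 and 1270 normalised CPM at 3M and 1240 (pair), 1190, 1250, 1220 and 1210 at 24M (log2 fold change -0.08, adjusted p = 0.253), and 1110 to 1180 CPM in the 6 paired-end samples (-0.03, adjusted p = 0.81). Blcap (chromosome 2, 157556362 to 157571274, minus strand), which has the imprinted neuronal gene Nnat in an intron with no shared exonic base, held 93.9 to 114 CPM at 3M and 95.4 to 106 CPM at 24M (log2 fold change -0.06, adjusted p = 0.51). Its log2 fold change at 29M was -0.02 (adjusted p = 0.901), with 97.1 to 102 CPM against 95 to 108 CPM. In these abundant transcripts the aged samples lay inside or beside the young range.

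Flna (chromosome X, 74223461 to 74249820, minus strand) held 74, 75.9, 59, 64.9 and 76.4 normalised CPM at 3M and 71.6 (pair), 80.5, 87.5, 86.6 and 73 at 24M. The log2 fold change was 0.19 (95% interval 0.02 to 0.37, adjusted p = 0.159). At 29M the values were 97, 83 and 95 CPM against 65.5, 77.9 and 89.1 at 3M, a log2 fold change of 0.24 (95% interval 0.05 to 0.44, adjusted p = 0.177). The groups overlapped at both ages. Flna is abundant in vessels and meninges. The 8 endothelial and mural markers summed to 290 to 369 CPM at 3M and 342 to 412 CPM at 24M, and in the paired-end libraries to 308 to 343 and 243 to 340 CPM. The 6 meningeal markers summed to 318 to 433 and 297 to 531 CPM in the single-end groups and to 304 to 436 and 324 to 402 CPM in the paired-end groups. Within these lists Cldn5, an endothelial junction gene, was called lower at 24M (-0.60 on the log2 scale, adjusted p = 0.0242) and Lum, a fibroblast matrix gene, higher (0.85, adjusted p = 0.0306), and none was called at 29M. Their part in the Flna values was not tested.

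Slc7a2 (chromosome 8, 40862396 to 40922308, plus strand) held 39.1, 40.9, 39.4, 39 and 46.2 normalised CPM at 3M and 41.7 (pair), 43.6, 49.6, 46 and 45.6 at 24M (log2 fold change 0.15, 95% interval 0.01 to 0.29, adjusted p = 0.166). Replicate 5 stood apart from the other 4 young samples, and without it the adjusted p was 0.0461. At 29M the samples held 49.6, 42.5 and 48 CPM against 39.3, 46.5 and 46.8 at 3M, a log2 difference of 0.08 (95% interval -0.09 to 0.25, adjusted p = 0.656). A noncoding gene on the opposite strand, Gm26584, covers 6.95% of its exonic bases.

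The test of the difference between the age effects found none of the 10 past the adjusted p. At an unadjusted p of at most 0.05 Adar alone passed, where 10.4% of the 16055 genes did. The differences, 29M effect minus 24M effect, ran from -0.24 for Htr2c (SE 0.239, adjusted p = 0.744) to 0.47 for Apobec3.

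After each group's mean was subtracted on the log2 scale, over 16 samples of the same 4 groups, the highest Pearson correlations among their 45 pairs were 0.79 for Adar with Blcap and 0.79 for Flna with Slc7a2, and the lowest was -0.74 for Adar with Htr2c. Adar and Adarb1 had an r of 0.37. These are descriptions over libraries that share depth and composition. Of 14452 genes compared, those most like Adar were Btrc (r = 0.92), which encodes a ubiquitin ligase subunit, Nrbp1 (0.92) and Ap3m2 (0.91). Those most like Htr2c were Sgk3, Sept10 and Lamp2 (each 0.95), the last a lysosomal membrane protein gene, and those most like Apobec1 were Cd9 (0.96), Lrrc51 (0.95) and Ctnna1 (0.94).

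Proteins known to act on ADAR enzymes or their substrates gave no calls either. Of 10 tested, among them Wwp2, which marks ADAR2 for degradation, and Aimp2, 0 were called at either age in either direction. Their log2 fold changes ran from -0.15 to 0.46 at 24M (median 0.02) and from -0.16 to 0.10 at 29M (median -0.01), where the median over all genes was 0.00 at both ages. Fmr1, which encodes the RNA-binding protein FMRP, was at the top of the range at 24M with an adjusted p of 0.061. Of the other deaminases and cofactors, 5 of 11 passed the filter on low counts and 0 were called in either direction, with Syncrip, an RNA-binding partner of APOBEC1, at 0.52 at 24M (adjusted p = 0.0674) and 0.00 (adjusted p = 0.982) at 29M. Among the 19 further transcripts with known recoding sites that are reported here, 0 were called at either age in either direction. Their log2 fold changes ran from -0.27 to 0.25 at 24M (median 0.01) and from -0.22 to 0.18 at 29M (median -0.02). Gria2, the glutamate receptor subunit whose recoding makes the channel impermeable to calcium, had 0.25 at 24M (adjusted p = 0.119) and -0.03 (adjusted p = 0.771) at 29M.

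Sensors of double-stranded RNA, the substrate that ADAR enzymes edit, differed from the editing genes in their count of calls. Both lists were chosen with earlier results of these data known, so this contrast is a description only. Of 10 tested at 24M 4 were called higher and 0 lower, with a median log2 fold change of 0.41, where 1.34% of all genes were called higher. They were Oas2 (1.53, adjusted p = 0.0353), Oasl2 (1.10, adjusted p = 0.0376), Ddx58 (0.54, adjusted p = 0.0496), the gene of the sensor RIG-I, and Eif2ak2 (0.52, adjusted p = 0.0363), the gene of the kinase PKR. Oas2 was near the floor, with means of 0.364 normalised CPM at 3M and 1.08 at 24M, and was not among the genes tested at 29M. With a filter of at least 1 CPM, 3 genes of the list were called higher at 24M. The 4 calls at 24M were lost when single libraries were left out, while every fold stayed above 0. Leaving out 3M replicates 1, 3 or 4 or 24M replicate 2 left 0 of them, leaving out 24M replicate 3 or 6 left 2, and leaving out replicates 1 and 4 together also left 0. Over single libraries left out the log2 fold change of Oas2 was 1.25 to 1.76, of Oasl2 0.78 to 1.23, of Ddx58 0.37 to 0.60 and of Eif2ak2 0.41 to 0.58, each lowest without 24M replicate 2. At 29M 4 of 9 were called higher and 0 lower (median 0.54), where 1.34% of all genes were called higher: Oasl2 (1.51, adjusted p = 0.000624), Ifih1 (1.03, adjusted p = 0.00236), Ddx58 (1.02, adjusted p = 0.00182) and Trim25 (0.54, adjusted p = 0.00801). With single libraries left out, 3 to 5 were called at 29M (Trim25 had an adjusted p of 0.0611 without 29M replicate 1 and 0.0552 without replicate 3), and with all 4 groups in 1 fit 2 were. The summed microglial markers given above were also higher in both aged groups, and their part in these calls was not tested.

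Nuclear inosine-containing RNA, including the Slc7a2 form, is retained at paraspeckles, and 10 genes of these bodies were tested. Neat1, the noncoding RNA that builds them, was called higher at 24M (0.82, SE 0.143, adjusted p = 0.00945) and at 29M (1.16, SE 0.079, adjusted p = 4.93e-06). Cpsf6, a cleavage factor subunit found there, was called higher at 24M (0.53, adjusted p = 0.0466) and had 0.15 at 29M (adjusted p = 0.249). The Cpsf6 call was lost in 10 of 19 alternative fits, with adjusted p of 0.00993 to 0.113 over the libraries left out. The protein components Nono, Sfpq and Pspc1 were not called, with log2 fold changes of -0.02, 0.19 and 0.11 at 24M and -0.15, 0.15 and -0.02 at 29M. The list medians were 0.14 and 0.02.

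**Figure D5:**
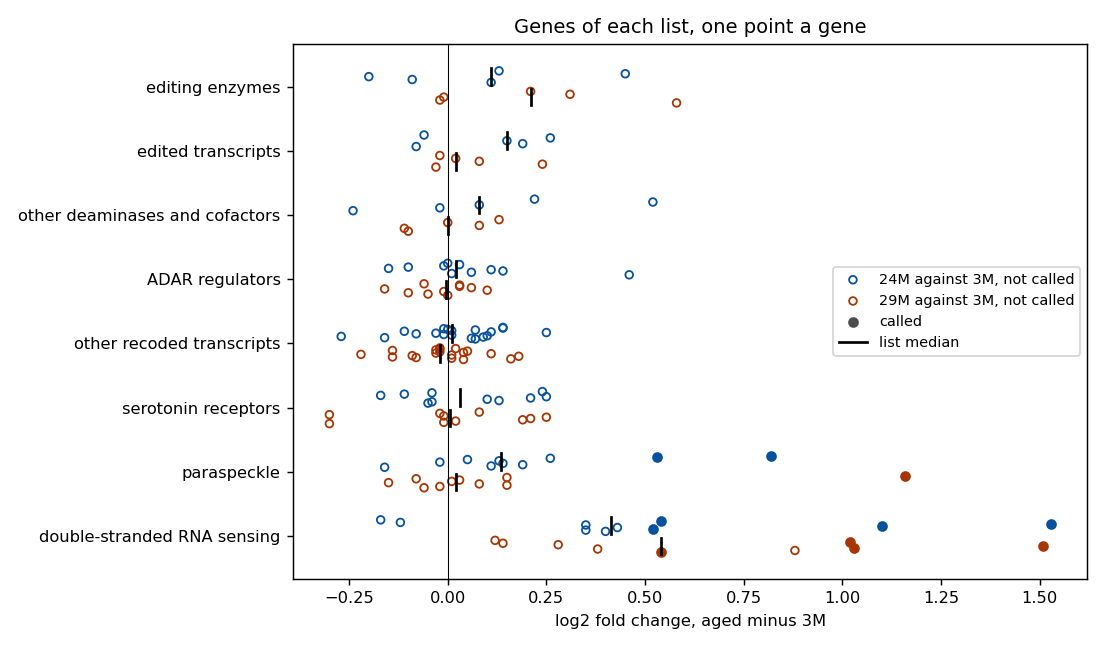
Log2 fold change, aged minus 3M, of each tested gene in the editing genes and 6 related lists, with 1 point a gene; filled points were called, black bars are list medians, blue is 24M and brown 29M. The editing enzymes and edited transcripts hold no filled point, and the double-stranded RNA sensing list holds 4 at each age.

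Promoter sequence was also described. The gene lists were chosen by known function and with earlier results of these data known. The shares below are therefore a description and not independent evidence. Windows of 300 bases around annotated starts (RefSeq, GRCm38) were searched on both strands for GAAANNGAA, the core of the element bound by interferon regulatory factors, in which N is any base. The motif was present in 8.56% of 32851 promoters. Among windows of the double-stranded RNA sensing genes it was in 6 of 9 (66.7%), with 0 matches in the windows of Oasl2, Tlr3 and Mavs. Of the 6 with a match, Oas1a and Oas3 had not passed the filter on low counts, and Oas2 had no window here. It was present among windows of the editing enzymes in 2 of 8 and among those of the edited transcripts in 0 of 4. The enzyme windows belonged to Adar and Apobec3, and they are shown because these genes combined the motif with no call at either age. Matches are in capitals and do not overlap one another.
Adar, the third of its annotated starts, chr3:89730468-89730767, plus strand: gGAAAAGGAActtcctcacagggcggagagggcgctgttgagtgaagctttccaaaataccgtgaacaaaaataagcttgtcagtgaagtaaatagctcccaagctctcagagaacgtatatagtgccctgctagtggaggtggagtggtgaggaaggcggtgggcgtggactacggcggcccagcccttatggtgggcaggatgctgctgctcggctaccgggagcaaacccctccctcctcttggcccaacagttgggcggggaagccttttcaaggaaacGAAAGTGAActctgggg
Apobec3, the first of its annotated starts, chr15:79892158-79892457, plus strand, with the match on the opposite strand: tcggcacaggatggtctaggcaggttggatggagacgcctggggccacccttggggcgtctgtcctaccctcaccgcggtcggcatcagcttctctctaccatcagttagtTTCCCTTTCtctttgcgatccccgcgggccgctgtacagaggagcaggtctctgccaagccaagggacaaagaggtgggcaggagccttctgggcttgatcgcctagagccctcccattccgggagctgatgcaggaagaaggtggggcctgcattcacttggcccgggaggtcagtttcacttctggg
A match describes letters and not a binding site. The other windows of Adar (2) and Apobec3 (1) held no match.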

How the data were processed

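RNA of 17 hippocampal libraries was counted per gene. Per the labels and the methods of the study, polyadenylated RNA went through an Illumina TruSeq kit, reads were aligned with STAR 2.3.0 to GRCm38.p2, and HTSeq counted them. The authors deposited raw counts for 38355 Ensembl identifiers, without normalization, and 36602 were named here from GENCODE M21. The methods name the overlap mode (intersection non-empty) as the counting option set away from its default and do not name the strand option. The sources used here do not name the annotation used for counting. Of the reads on genes, outside genes or ambiguous, those outside genes were 11.2% to 18.2% and the ambiguous ones 1.16% to 1.84% in each library. Alignments that were not unique are not in these shares. They were 22.9% to 26.6% of all entries in the single-end and 10.8% to 12.7% in the paired-end libraries. All these lines stayed out of library sizes and tests.

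The quasi-likelihood test of edgeR 4.0.16 under R 4.3.3 was applied with its default filter on low counts, TMM scaling and Benjamini-Hochberg adjustment. DESeq2 1.42.0 was an alternative. Normalised CPM use TMM library sizes of each comparison, and levels per kilobase use plain CPM. Similar genes were ranked on log2(CPM + 0.5) at a mean of at least 1 CPM. The steps were tested on simulated data. Differences between single libraries of a group measure the spread between these samples. Depth limits the precision of Apobec1 and Apobec3 most.

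The members, the gene lists and the tests were chosen with earlier results of these data known. All 10 genes are named. From each further list the genes called at either age are named, and otherwise at most the 2 with the largest changes, and the further list genes named beside these (Wwp2, Aimp2, Gria2, Nono, Sfpq, Pspc1) were named for what they are known to do, after their values were seen. The choroid plexus correlations were also computed after the values had been seen. Splicing and the share of edited reads were not analysed here. Certain list genes are left unreported and were taken out of their lists after their values had been seen, so the list counts and medians do not cover them.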

Additional observations from a re-analysis of the deposited data

Results flagged for a closer look

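Among groups of 4 to 10 samples, 46 sets of values (the 10 genes and 13 marker lists in the 3M single-end and 24M groups) were searched for a sample far from the others by Dixon's ratio, the gap to the nearest sample divided by the range. At the 95% level chance gives about 1 in 20, or 2.3 here, and 5 were found. Of the 10 genes only Slc7a2 was among them, with a ratio of 0.736 for 3M single-end replicate 5 on the high side (46.2 against 39 to 40.9 normalised CPM). In 3M single-end replicate 4 the summed striatal markers were high (ratio 0.834), as were the summed T and B cell markers (0.848, at 4.1 CPM over 7 genes). The summed thalamic markers were high in 24M replicate 6 (0.748), and the summed hypothalamic markers in 3M single-end replicate 2 (0.82).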

How the results depend on the processing

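No gene of the 10 was called at 29M under any of 13 alternatives, and at 24M the count of 0 became 1 under 2 of 20, namely without a fold threshold (Adar) and without 3M single-end replicate 5 (Apobec1), so it ranged from 0 to 1 over the libraries left out. No difference between the ages was called in any of 20. The decrease of Adar at 24M kept its direction throughout (-0.25 to -0.17), and its adjusted p was 0.00555 to 0.103 with single libraries left out, 0.0775 without 24M replicates 1 and 4 and 0.216 with the replicate number as a block. The 29M log2 fold changes that changed sign when a library was left out ranged from -0.044 to 0.025 for Adar, -0.052 to 0.018 for Adarb1, -0.093 to 0.122 for Htr2c and -0.053 to 0.041 for Blcap. The differences between ages that did so ranged from -0.341 to 0.005 for Apobec1, -0.005 to 0.09 for Blcap and -0.067 to 0.147 for Flna. Flna at 29M had an adjusted p of 0.000557 with no filter on low counts. The double-stranded RNA sensing genes called higher (alternatives added after the data were seen) fell from 4 to 1 at 24M with the block, to 0 without replicates 1 and 4 and to between 0 and 4 with single libraries left out. At 29M they were 2 with all 4 groups in 1 fit and 3 to 5 with libraries left out. The cause of these changes was not tested. No pairing by replicate number was seen, with correlations between same-numbered samples of -0.18 to 0.06 at 24M and -0.10 to 0.11 at 29M. So few samples cannot decide whether the numbers pair them, and replicate 4 had no 24M sample of its own in this check. Beside the values above, the replicate block took Neat1 (adjusted p = 0.0878) and Cpsf6 (0.192) out of the calls at 24M. It changed no call of the 10 genes.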

Other observations

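Of the marker lists not described above, none of 6 neuronal markers was called at either age, and none of 6 oligodendrocyte or 6 hippocampal markers. Of 6 astrocyte markers 1 was called higher at each age. Of 8 striatal markers 0 were called at 24M and 1 lower at 29M, and of 4 thalamic and 2 tested hypothalamic markers none was called at either age (edgeR's quasi-likelihood test).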
